A study of Drosophila melanogaster with 136 samples.

Results

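The vitelline membrane genes are the genes whose products build, stiffen or load the innermost layer of the Drosophila melanogaster eggshell. They were chosen by symbol, as the probe sets annotated to Vm26Aa, Vm26Ab, Vm26Ac, Vm32E, Vm34Ca, Vml, psd and fs(1)N. Of these 8 genes, 6 had a probe set of their own in the annotation used, among 11982 genes with a probe set of 1 symbol. The annotation used lists no probe set with Vm26Ab or Vml as its only symbol, and both were not analysed here. Each of the 6 had exactly 1 probe set. These are 1635847_at for Vm26Aa, 1625398_at for Vm26Ac, 1624061_at for Vm32E, 1635503_at for Vm34Ca, 1639805_at for psd and 1624058_at for fs(1)N.

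The vitelline membrane is secreted by the follicle cells, the epithelium that surrounds the growing oocyte, in mid-oogenesis, before the chorion is laid down over it. Its small structural proteins share a conserved hydrophobic domain and are crosslinked late in oogenesis and again at egg activation. The layer also holds cues that pattern the ends and the ventral side of the embryo. Some of its components come from the oocyte and not from the follicle cells.

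RNA was measured on 136 arrays in 34 groups of 4, all of the wild-type Canton-S strain except a cultured cell line. Ovary samples came from 30 females 7 days old, and were taken without the spermatheca and uterus. Testis samples came from 60 males of that age, without accessory glands. Each whole fly sample pooled 12 females and 12 males 7 days old, so the ovaries of the females are part of the whole fly RNA. The other dissected adult groups, 20 with testes included, came from flies of the same age, mostly of both sexes, and 11 groups came from third-instar larvae, the whole larva with 30 feeding larvae per sample among them. The last group was S2 cells, a line of embryonic origin. Spermathecae, the sperm storage organs of the female, were taken from mated and from virgin females with the fat body around them, with 2 rounds of amplification where ovary, testes, whole fly and whole larva had 1. A redone set of mated spermathecae had 1 round for replicates 1 to 3 and 2 rounds for replicate 4. The titles call the replicates biological for most groups, ovary, testes, whole fly and whole larva among them. They do not for the first mated and the virgin spermathecae, salivary gland, ganglion and 3 larval groups, where the spread among arrays may be technical.

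All values are linear array signals in intensity units, scaled so that the mean of the middle 96% of probe sets is 100.00 everywhere. The ovary arrays carried the signals of ovary, with summed signals of 3832 to 4066 for 4 measured germline markers and of 9292 to 10786 for 5 follicle cell markers, of which Yp1 is also made in fat body. Markers of other tissues summed to 8.04 to 13.9 for testis (5 genes), 6.55 to 61.3 for accessory gland (5), 38.6 to 45.5 for fat body (5), 21.8 to 34.5 for hemocytes (4), 10.5 to 18.6 for neurons (3) and 39.9 to 58.6 for muscle (3). The lowest correlation between 2 arrays of a group was 0.994 in ovary and 0.98 in the whole fly, and 2 groups, thoracic muscle and a redone set of mated spermathecae, stood below 0.88 with 0.77 and 0.765. The number of arrays limits the precision.

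The genes of the layer were brighter in the ovary and the whole fly than elsewhere, and dim in nearly all other groups. Counted from the brightest of 18769 probe sets, Vm34Ca ranked 3 to 39 in ovary and 8 to 197 in the whole fly. Vm26Ac ranked only 2342 to 5212 in ovary and 3106 to 7961 in the whole fly. For each of the 6 genes, every array of all 32 other groups lay below every ovary array and below every whole fly array. The share of all probe sets with such a separation was not counted, so how unusual it is cannot be told. The highest signals of Vm34Ca and Vm26Aa were 4081 and 3513 in ovary, and 5558 and 4099 in the whole fly. The highest signal of any probe set was 4196 to 4801 on the ovary arrays and 4516 to 6537 on the whole fly arrays, and 7803 to 9495 on carcass and 9855 to 13392 on trachea arrays. Whether high signals are compressed was not tested.

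**Figure D1:**
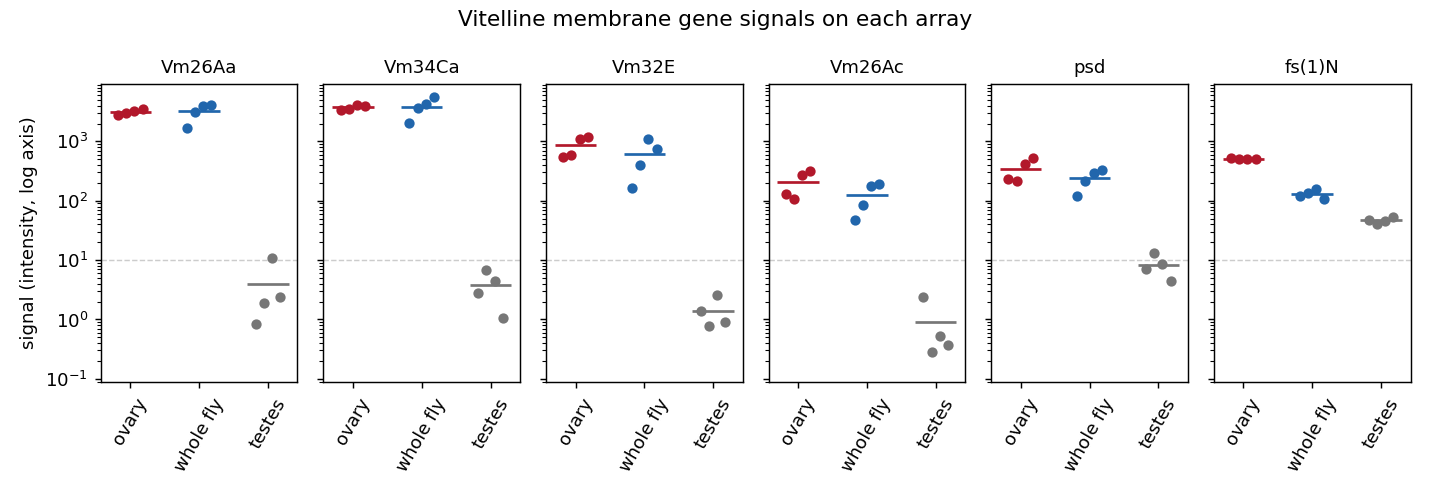
Signal in intensity units on a log axis for each of 4 ovary, whole fly and testis arrays, one panel per gene, with a bar at the group mean and a dashed line at the pseudocount of 10. The ovary and whole fly arrays overlap for the first 5 panels, while the fs(1)N ovary arrays, at 501 to 530, stand above all whole fly arrays, at 106 to 161.

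Vm26Aa and Vm34Ca encode major structural proteins of the layer. Vm26Aa had signals of 2766, 3013, 3234 and 3513 in ovary, against 1712, 3146, 3974 and 4099 in the whole fly. The whole fly arrays enclosed the ovary arrays. The mean was 3131 ± 318 in ovary and 3233 ± 1099 in the whole fly (SD, n = 4 each), a log2 fold of 0.03 ± 0.25 (SE; 95% interval -0.52 to 0.58; limma adjusted p = 0.93). All folds here are on the scale of log2(signal + 10), which understates differences of dim genes.

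Vm34Ca had signals of 3421, 3532, 4081 and 3949 in ovary, against 2054, 3610, 4195 and 5558 in the whole fly. Again the ovary values fell inside the whole fly range. Its mean was 3746 ± 319 in ovary and 3854 ± 1451 in the whole fly, with a log2 fold of 0.04 ± 0.25 (95% interval -0.52 to 0.60; limma adjusted p = 0.89). For both genes the interval leaves out a doubling in either direction.

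Vm32E encodes a minor protein of the layer that is made late and by only a part of the follicle cells. Its signals were 555, 601, 1104 and 1203 in ovary, against 166, 397, 1094 and 756 in the whole fly. The groups overlapped, with the lowest array in the whole fly. The means were 866 ± 335 in ovary and 603 ± 407 in the whole fly, a log2 fold of 0.74 ± 0.51 (95% interval -0.41 to 1.89; limma adjusted p = 0.21).

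Vm26Ac lies in the same gene cluster as Vm26Aa. It had signals of 129, 107, 272 and 318 in ovary, against 48.3, 84.4, 179 and 192 in the whole fly. Ovary and whole fly overlapped here too. The means of 206 ± 104 in ovary and 126 ± 70.6 in the whole fly gave a log2 fold of 0.71 ± 0.45 (95% interval -0.30 to 1.72; limma adjusted p = 0.17).

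The gene psd (palisade) encodes a protein needed for the structure and crosslinking of the layer. Its signals were 233, 215, 415 and 529 in ovary, against 121, 216, 292 and 329 in the whole fly. These ranges overlapped as well. The log2 fold was 0.51 ± 0.35 (95% interval -0.27 to 1.29; limma adjusted p = 0.2), from means of 348 ± 151 in ovary and 240 ± 91.9 in the whole fly. For Vm32E, Vm26Ac and psd the intervals hold both no difference and a doubling. These intervals do not pair arrays by replicate number. A replicate block in limma gave adjusted p-values of 0.022 for Vm32E, 0.0032 for Vm26Ac and 0.014 for psd, with folds still under 2-fold.

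The gene fs(1)N (Nasrat) encodes a large protein that is made by the germline, keeps the vitelline membrane intact and helps to hold the cue for the ends of the embryo in it. Its signals were 530, 501, 502 and 508 in ovary, against 121, 138, 161 and 106 in the whole fly. No whole fly array came near an ovary array. The mean was 510 ± 13.7 in ovary and 131 ± 23.6 in the whole fly, and the log2 fold of 1.90 ± 0.12 (95% interval 1.64 to 2.16) had a limma adjusted p of 1.4e-07.

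So 1 of the 6 genes, fs(1)N, was called higher in ovary than in the whole fly, and 0 were called lower, where a call needs 2-fold or more and an adjusted p under 0.05. Of all 13472 probe sets tested in that comparison 12.5% were called higher and 29.5% lower. In bulk RNA, fewer cells of a type and less RNA per cell cannot be told apart. Under quantile normalization the median log2 fold of all probe sets moved to 0.45, against -0.05 with the trimmed mean, and 54.3% of the calls were higher in place of 29.7%. Set against the median of all probe sets, fs(1)N stood 1.94 higher with the trimmed mean and 1.28 higher with quantile normalization. Vm26Aa stood 0.07 above that median with the trimmed mean and was at -0.09 with quantile normalization, Vm34Ca 0.09 and -0.07, and psd 0.56 and -0.21. Their own log2 folds with quantile normalization were 0.36, 0.38 and 0.24, and none of the 3 was called under either scaling, so no direction is given for them.

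**Figure D2:**
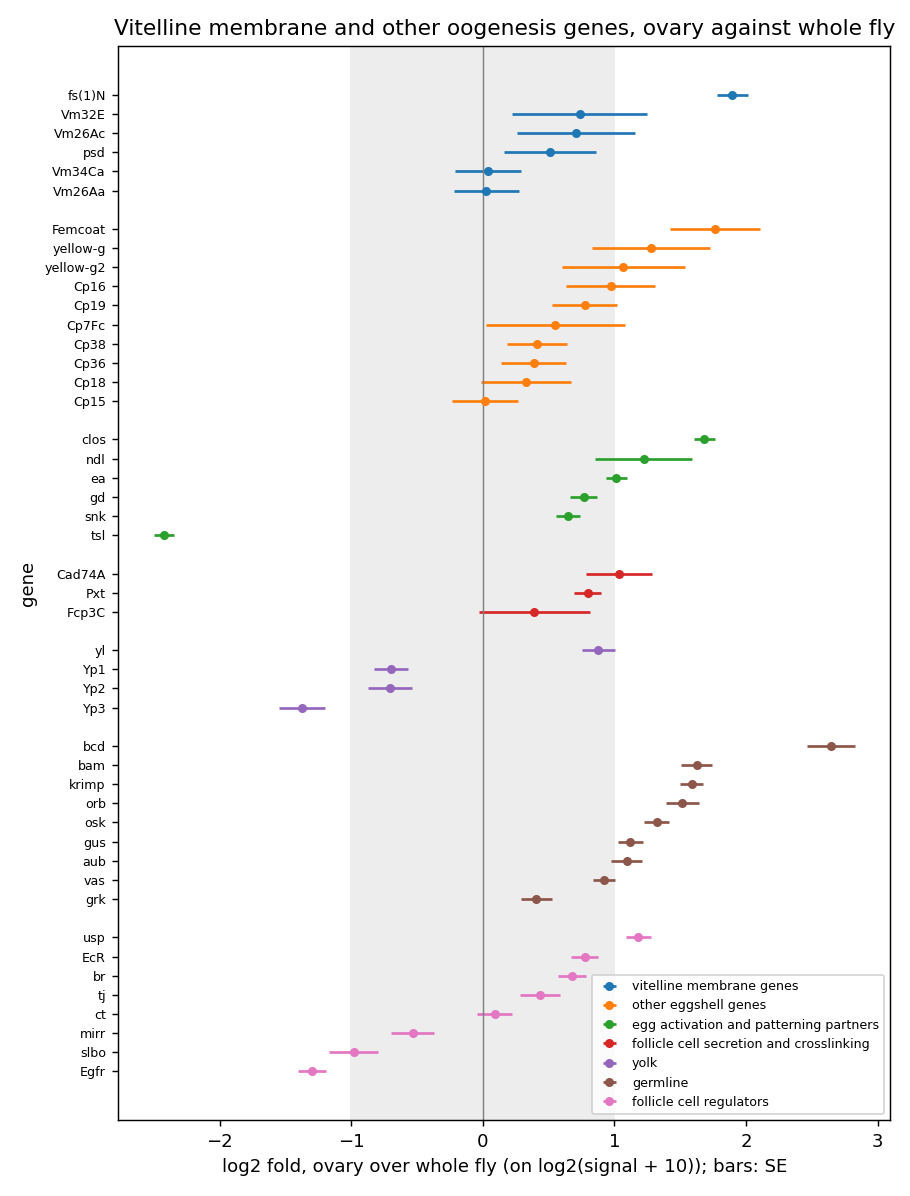
The log2 fold of ovary over whole fly with its SE for the 6 vitelline membrane genes and for tested genes of other oogenesis lists, 4 arrays per group, with the range under 2-fold shaded. The fold of fs(1)N is 1.90, smaller than that of bcd at 2.65 and larger than those of Femcoat at 1.77 and clos at 1.68. The other 5 vitelline membrane genes lie between 0.03 and 0.74.

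Genes with related tasks in oogenesis were read from the same fit, and their lists were chosen with results of these data known. In that fit 12.5% of all probe sets tested were called higher and 29.5% lower. Of 10 measured genes of the outer eggshell and its hardening, 2 were called higher in ovary, 0 lower, and 8 were not called, with a median log2 fold of 0.66 beside -0.05 over all probe sets tested. Femcoat, an eggshell protein, was higher by 1.77 ± 0.34 (728 ± 165 in ovary, 225 ± 116 in the whole fly, limma adjusted p = 0.00073). The gene yellow-g, needed for a rigid vitelline membrane, was higher by 1.28 ± 0.45 (899 ± 197 in ovary, 427 ± 246 in the whole fly, limma adjusted p = 0.024), and lost its call without whole fly replicate 1, at 0.76, and without ovary replicate 4, at 1.15 (limma adjusted p = 0.058). The related gene yellow-g2 had 1.07 ± 0.47 (limma adjusted p = 0.058). The chorion gene Cp16 had 0.97 ± 0.34, just under 2-fold, and Cp15 had 0.02 ± 0.25. Over 17 other settings between 1 and 4 of the 10 were called higher.

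The partners of egg activation and patterning work in or on the vitelline membrane. Of 6 tested, 3 were called higher, 1 lower and 2 were not called, with a median log2 fold of 0.89. Over all probe sets tested 12.5% were called higher and 29.5% lower. The gene clos (closca), which acts with fs(1)N, had 389 ± 11 in ovary against 115 ± 8.82 in the whole fly and a log2 fold of 1.68 ± 0.08 (limma adjusted p = 1.8e-08). The gene ndl (nudel), a protease secreted by follicle cells into the layer, was higher by 1.22 ± 0.37 (limma adjusted p = 0.011), and ea (easter), a protease of the dorsoventral cascade, by 1.02 ± 0.08 (limma adjusted p = 1.1e-06). Without whole fly replicate 1 the values of ndl, at 0.92, and ea, at 0.96, lay under 2-fold, as did ndl without ovary replicate 4, at 0.99, and ea without ovary replicate 1, at 1.00 and just short of it. With a pseudocount of 40% of the trimmed mean, ndl had 0.99 and ea 0.84. The gene tsl (torso-like), made by follicle cells at the poles of the oocyte, was lower, with 16.4 ± 0.25 in ovary, 132 ± 9.79 in the whole fly and a log2 fold of -2.42 ± 0.08 (limma adjusted p = 1.1e-09). The proteases gd and snk had 0.77 and 0.65 and were not called. The probe set read for pip, the brightest of 10 over all arrays, was too dim to be tested here. With a mean over the probe sets of each gene 7 partners were tested, 3 called higher and 1 lower. Other settings called 1 to 5 of these genes higher, and all of them kept 1 lower.

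Germline genes held 7 higher, 0 lower and 2 not called of 9 tested, with a median of 1.32. Beside them, 12.5% of all probe sets tested were called higher and 29.5% lower. The largest were bcd (bicoid, a maternal patterning mRNA) at 2.65 ± 0.19, bam (needed for germ cell differentiation) at 1.63 ± 0.12, krimp (of the piRNA pathway) at 1.59 ± 0.09 and orb (a regulator of translation in the oocyte) at 1.51 ± 0.13, with limma adjusted p-values of 3.7e-07, 4.4e-07, 6e-08 and 1.3e-06. The genes vas at 0.92 and grk at 0.41 were not called. Over 17 other settings 6 to 8 were called higher.

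Of 3 tested genes of follicle cell secretion and crosslinking 1 was called higher, Cad74A, a cadherin of follicle cells, at 1.03 ± 0.25 (limma adjusted p = 0.0034), and it was under 2-fold without whole fly replicate 1, at 0.77, ovary replicate 3, at 1.00, or ovary replicate 4, at 0.93. The peroxidase gene Pxt had 0.80 ± 0.10 and Fcp3C, a follicle cell protein, 0.39 ± 0.42. In the yolk list 0 of 4 genes were higher and 1 lower, Yp3, a yolk protein gene, at -1.37 ± 0.18 (1676 ± 374 in ovary, 4328 ± 764 in the whole fly, limma adjusted p = 3.6e-05). Yp1 and Yp2 had -0.70 and -0.71, and the oocyte receptor gene yl had 0.88 ± 0.12. Among 8 regulators of follicle cells, usp, the partner of the ecdysone receptor, was higher by 1.18 ± 0.10 (limma adjusted p = 1.1e-06), Egfr was lower at -1.30 ± 0.10 (limma adjusted p = 9.2e-07), and 6 were not called. The Egfr call was lost under quantile normalization, at -0.06, and the usp call likewise, at 0.90. Over 17 other settings 1 to 4 of these regulators were called higher and 0 to 2 lower. The counts of these lists stand beside 12.5% of all probe sets called higher and 29.5% lower. Markers of body tissues were mostly called lower in ovary than in the whole fly, beside 29.5% of all probe sets. The counts were 4 of 5 fat body genes, 3 of 3 muscle genes, 4 of 4 hemocyte genes and 2 of 3 neuron genes. For accessory gland 5 of 5 were called lower, and 4 of 4 tested testis genes. The part of these tissues in the folds above was not tested.

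The 4 ovary arrays differed from each other more for some genes of the layer than for others. The highest over the lowest ovary array was 1.06 for fs(1)N, 1.19 for Vm34Ca and 1.27 for Vm26Aa. It was 2.17 for Vm32E, 2.46 for psd and 2.97 for Vm26Ac. For Vm32E, psd and Vm26Ac alike, replicates 1 and 2 were both lower than replicates 3 and 4. The chorion genes Cp15 and Cp36 were more even, at 1.17 and 1.16, as were the germline gene osk, at 1.12, and the yolk receptor gene yl, at 1.05, while Femcoat reached 1.67. The follicle cell genes ndl, at 2.34, and Fcp3C, at 2.24, lay between Vm32E and psd.

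Whole fly arrays were less even for most of the genes. The highest over the lowest whole fly array was 6.59 for Vm32E, 3.97 for Vm26Ac, 2.72 for psd, 2.71 for Vm34Ca, 2.39 for Vm26Aa and 1.52 for fs(1)N. Replicate 1 was the lowest whole fly array for all of these except fs(1)N, which was lowest in replicate 4. Replicate 1 was also lowest for Femcoat, with a spread of 3.70, and for yellow-g, with 6.17. Without whole fly replicate 1 the log2 fold was -0.25 for Vm26Aa, -0.23 for Vm34Ca, 0.24 for Vm32E, 0.23 for psd and 0.36 for Vm26Ac, none of them called. Over all single arrays left out, the highest folds were 0.17 for Vm26Aa, 0.25 for Vm34Ca, 0.70 for psd, 0.96 for Vm26Ac and 1.12 for Vm32E, the last without whole fly replicate 3 and not called either.

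**Figure D3:**
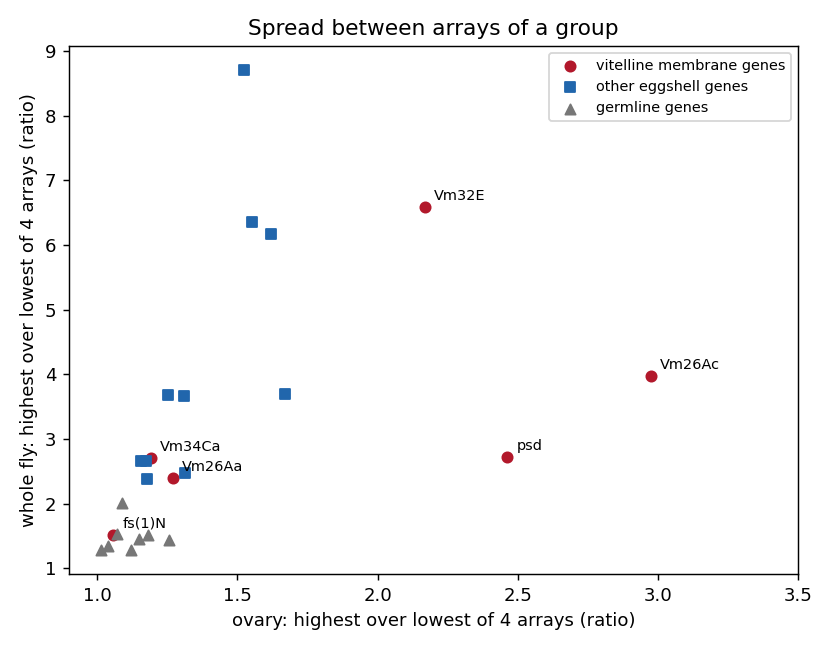
Ratio of the highest to the lowest of 4 arrays within ovary (x axis) and within the whole fly (y axis), for the vitelline membrane genes, 10 other eggshell genes and 8 germline genes with an ovary mean of at least 100.00. Vm26Ac, psd and Vm32E, at 2.97, 2.46 and 2.17, lie to the right of the eggshell and germline genes, and fs(1)N, at 1.06 and 1.52, lies among the germline genes.

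Ovary against testes compares the female with the male gonad. All 6 genes were called higher in ovary and 0 lower, where 32.5% of 13513 probe sets were called higher and 22.9% lower. Vm26Aa had signals of 0.82, 1.92, 10.9 and 2.39 in testes, and its mean was 3131 ± 318 in ovary against 4.01 ± 4.65 in testes, a log2 fold of 7.85 ± 0.19 (limma adjusted p = 2.8e-11). Vm34Ca averaged 3.79 ± 2.46 in testes, with a fold of 8.10 ± 0.13 (limma adjusted p = 1.2e-12). Apart from the Vm26Aa value of 10.9, the testis values of both genes lay below the pseudocount.

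The testis means of Vm32E, Vm26Ac and psd were 1.40 ± 0.80, 0.89 ± 1.00 and 8.33 ± 3.66. Their log2 folds were 6.18, 4.18 and 4.21, with limma adjusted p-values of 1.2e-09, 2.5e-07 and 1e-07. For fs(1)N the testis arrays read 47.6, 40.5, 46.2 and 52.8, all above the pseudocount and close to each other. Its mean of 46.8 ± 5.05 in testes was 7.95% to 10.4% of the ovary mean array by array, and the log2 fold of ovary over testes was 3.20 ± 0.08 (limma adjusted p = 2.7e-11). The testis arrays also held a median of 7.13% to 9.67% of the ovary mean for 8 germline genes and of 0.124% to 0.247% for the 10 other eggshell genes. Single germline genes lay far apart in testes, from 0.0146% to 29.2% of their ovary means. The 4 germline markers summed to 12.7 to 22.2 in testes.

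In the same fit 10 of 10 other eggshell genes, 4 of 4 yolk genes, 3 of 3 genes of follicle cell secretion and 9 of 9 germline genes were called higher in ovary than in testes. Of the egg activation and patterning partners 5 of 7 were called higher and 0 lower. Of the follicle cell regulators 4 of 8 were higher and 0 lower. Over all probe sets tested 32.5% were called higher and 22.9% lower. Here tsl had 16.4 ± 0.25 in ovary and 9.56 ± 2.25 in testes, a log2 fold of 0.44 that was not called. The median log2 fold was 6.76 for the other eggshell genes, 7.17 for yolk and 2.45 for germline genes, beside 0.15 over all probe sets tested.

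Against the unweighted mean of the other 20 dissected adult groups, all 6 genes were higher in ovary and 0 lower, where 17.3% of 17480 probe sets were called higher and 15.7% lower. The log2 folds were 6.89 ± 0.38 for Vm34Ca, 6.80 ± 0.34 for Vm26Aa, 5.71 ± 0.26 for Vm32E, 4.95 ± 0.19 for fs(1)N, 4.26 ± 0.22 for psd and 3.72 ± 0.20 for Vm26Ac, with limma adjusted p-values between 9.8e-36 and 1.6e-26. The same contrast gave 10 of 10 higher for the other eggshell genes, 8 of 9 for the germline genes, 3 of 4 for follicle cell secretion and 2 of 4 for yolk, with 0 lower in each. Of the egg activation and patterning partners 5 of 7 were higher and 1 lower, tsl at -3.17 ± 0.27 (limma adjusted p = 2.3e-17). Of the follicle cell regulators 3 of 8 were higher and 1 lower, Egfr at -1.42 ± 0.21 (limma adjusted p = 2.4e-08).

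Set one by one against the whole fly, these 20 groups gave 120 comparisons of a gene in a tissue. In all 120 the gene was called lower in the tissue, and in 0 higher, where over all probe sets and fits 29.6% of the tests were lower and 12.7% higher. The fits share the whole fly arrays. Carcass, the abdominal body wall, had the log2 folds nearest to 0 for Vm34Ca at -3.64 ± 0.68, Vm26Aa at -3.93 ± 0.64 and psd at -2.82 ± 0.36, with limma adjusted p-values of 0.00083, 0.00034 and 6.6e-05. Trachea had -4.09 ± 0.39 for Vm34Ca and -4.42 ± 0.53 for Vm26Aa, and midgut -3.15 for psd, so the groups lie within their errors of each other. Without carcass replicate 2 the carcass folds were -4.41 for Vm34Ca and -4.64 for Vm26Aa, below those of trachea, and -3.09 for psd. Trachea was nearest for Vm32E at -3.30 ± 0.50, and salivary gland for Vm26Ac at -2.25 ± 0.39. For fs(1)N it was testes, at -1.30 ± 0.13 (limma adjusted p = 1.7e-06).

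**Figure D4:**
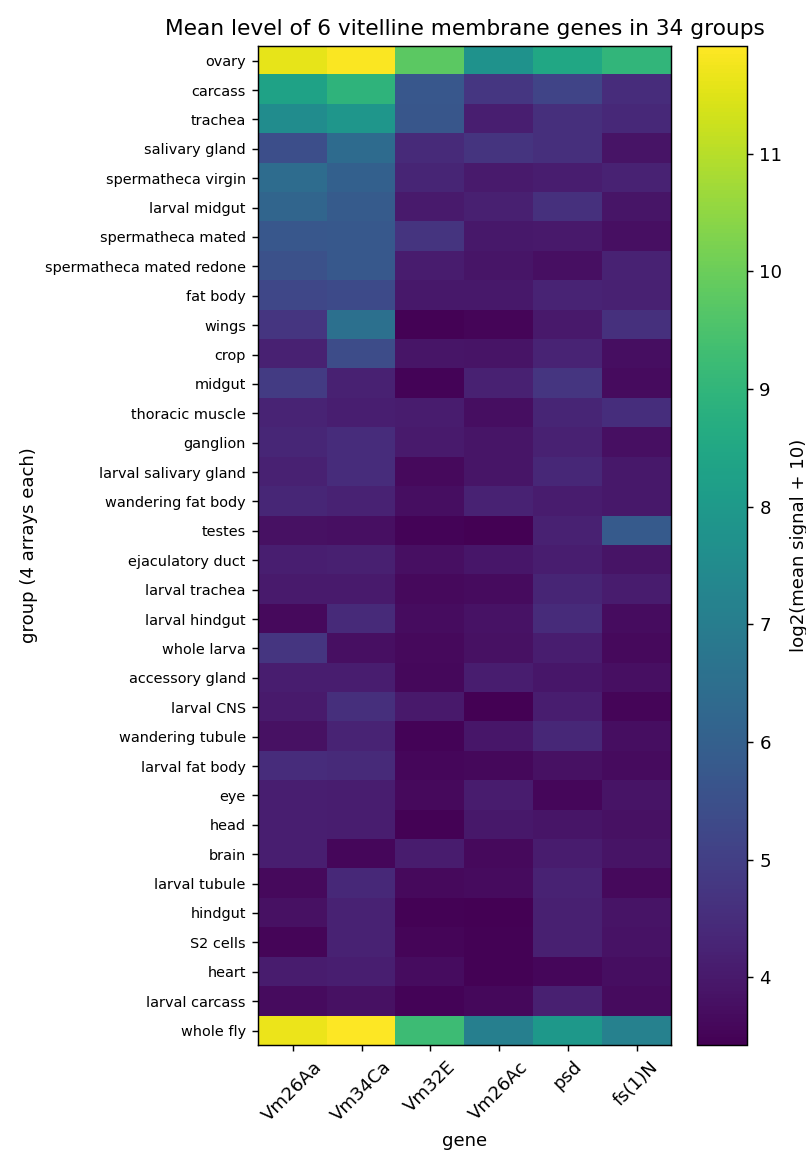
Mean signal of the 6 vitelline membrane genes in all 34 groups of 4 arrays, as colour on the scale of log2(mean signal + 10), with ovary in the top row and the whole fly in the bottom row. Apart from these rows only Vm26Aa and Vm34Ca have group means of at least 100.00, in carcass and trachea, and fs(1)N has its highest other mean in testes at 46.8.

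By mean signal carcass came next after ovary and whole fly for 5 of the 6 genes, a place that rests on carcass replicate 2 for all but psd. Vm26Aa averaged 308 ± 378 in carcass, 178 ± 173 in trachea, 75.4 ± 52.2 in virgin spermatheca and 64.0 ± 23.2 in larval midgut. It then stood at 43.7 ± 35.9 in mated spermatheca, 35.7 ± 34.7 in the redone mated set, 34.2 ± 30.0 in salivary gland and 27.9 ± 9.61 in fat body, and below 20 in 24 of the 32 groups. Neighbours in this order overlap within their spread, so carcass, trachea and virgin spermatheca cannot be ranked against each other.

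Vm34Ca averaged 488 ± 648 in carcass, 227 ± 134 in trachea, 84.7 ± 129 in wings and 73.3 ± 60.5 in salivary gland. Virgin spermatheca followed with 55.8 ± 29.5, larval midgut with 48.3 ± 28.0, the redone and the first mated spermatheca with 44.4 ± 62.8 and 44.3 ± 42.5, crop with 32.2 ± 22.9 and fat body with 30.3 ± 6.03, and 22 of 32 groups averaged less than 20. The wing mean rests on replicate 3, at 277. The other wing arrays read 12.5, 22.8 and 26.1, and without replicate 3 the wing mean was 20.5 ± 7.10 and the log2 fold against the whole fly -6.93 in place of -6.11. In the redone mated set replicate 2 read 138, and the mean without it was 13.2 ± 9.31.

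Vm32E averaged 42.9 ± 62.0 in carcass and 41.6 ± 13.1 in trachea, and stayed below 20 in the other 30 groups. For psd carcass was the next group with 25.8 ± 16.1, and 31 of 32 groups averaged less than 20, midgut at 16.5 ± 1.91 being the next. Vm26Ac was below 20 in all 32, with 17.5 ± 17.6 in carcass and 16.0 ± 6.82 in salivary gland on top. For fs(1)N, testes was followed by wings at 14.6 ± 14.6 and thoracic muscle at 13.2 ± 9.77. In S2 cells the genes of the layer averaged at most 8.78, and in brain at most 7.80.

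A single carcass array stood above the others. Vm34Ca read 202, 1459, 115 and 178 on the 4 carcass arrays, and Vm26Aa 174, 871, 75.4 and 110. Vm32E read 22.8, 135, 2.10 and 11.7, psd 20.7, 47.8, 25.0 and 9.65, and Vm26Ac 3.56, 43.3, 11.6 and 11.6. For all of them replicate 2 was the highest carcass array. Without it the carcass mean was 165 ± 44.8 for Vm34Ca, 120 ± 50.0 for Vm26Aa and 12.2 ± 10.4 for Vm32E, each below the trachea mean. Vm26Ac then averaged 8.95, below salivary gland at 16.0, and psd 18.4, still above midgut at 16.5. For Vm34Ca, Vm26Aa and Vm32E the log2 folds against the whole fly were then -4.41, -4.64 and -4.60, each still called lower (limma adjusted p of 4.1e-06, 4.4e-06 and 0.00012).

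Carcass replicate 2 held a median of 21.0% of the ovary mean over the 5 genes without fs(1)N, from 13.8% for psd to 38.9% for Vm34Ca. On the same array fs(1)N held 4.5%. The other eggshell genes held a median of 6.64% there, with Cp36 highest at 16.1%, and the germline genes a median of 6.80%. On the remaining 3 carcass arrays those medians were 3.08% to 5.39% for the 5 genes, 0.474% to 2.10% for other eggshell genes and 1.91% to 2.08% for germline genes. One germline gene, grk, stood at 151% to 181% of its ovary mean in carcass. The summed germline markers ranged from 42.0 to 230 over the carcass arrays and the accessory gland markers from 53.8 to 536. Their part in the carcass signals was not tested.

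The trachea arrays overlapped with those of carcass. Vm26Aa read 143, 432, 71.9 and 66.2, Vm34Ca 212, 420, 143 and 132, and Vm32E 41.3, 59.4, 37.5 and 28.1. All 4 Vm32E values lay above those of 3 of the 4 carcass arrays. Replicate 2 was the highest trachea array for these 3 genes and for psd, while Vm26Ac was highest on replicate 4, at 12.6 or 6.09% of its ovary mean. The medians on replicate 2 were 6.86% of the ovary mean over the 5 genes and 3.75% over the other eggshell genes, the highest of the 4 arrays. The germline median was highest on replicate 1, at 6.78%, against 4.32% on replicate 2. On replicate 2 the chorion gene Cp15 stood at 54.6% of its ovary mean, above Vm26Aa at 13.8%. The germline markers summed to 39.5 to 139 over the trachea arrays, and what they contribute was not tested. Spermatheca arrays of virgin females held medians of 1.01% to 4.74% for the 5 genes and 0.332% to 0.598% for other eggshell genes.

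**Figure D5:**
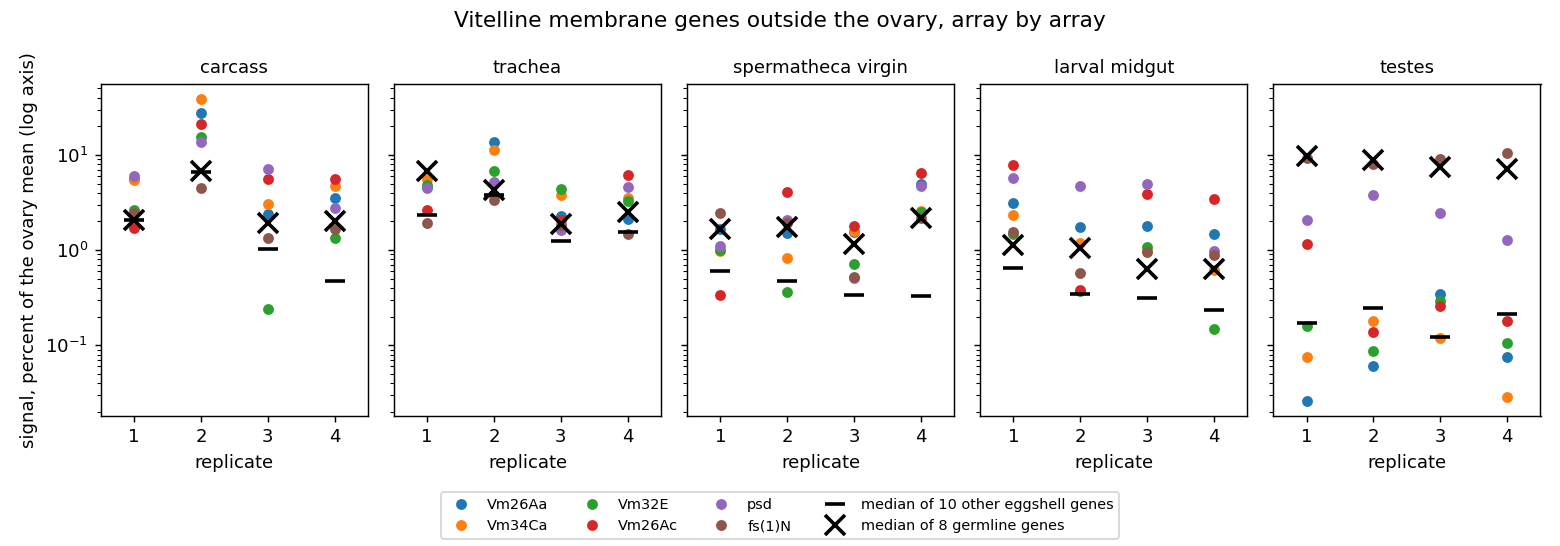
Signal as a percent of the gene's ovary mean on a log axis, for each array of carcass, trachea, virgin spermatheca, larval midgut and testes, with the medians of 10 other eggshell genes and 8 germline genes. Carcass replicate 2 stands out with 13.8% to 38.9% for 5 genes, and in testes fs(1)N, at 7.95% to 10.4%, lies beside the germline median. The germline genes behind that median spread from 0.0146% to 29.2% in testes.

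Whole fly against whole larva compares the adult with a stage that has no mature ovary. All 6 genes were called higher in the whole fly and 0 lower, where 22.4% of 12336 probe sets were called higher and 11.3% lower. Under quantile normalization 51.1% of all calls were higher, against 66.4% with the trimmed mean, and the median log2 fold of all probe sets was 0.05 against 0.28. Vm34Ca averaged 3854 ± 1451 in the whole fly and 3.64 ± 0.19 in the whole larva, a log2 fold of 8.06 ± 0.24 (limma adjusted p = 2.5e-10). Vm26Aa averaged 16.9 ± 5.63 in the whole larva, with signals from 12.4 to 24.9, and the fold was 6.86 ± 0.26 (limma adjusted p = 1.5e-09). The folds of Vm32E, psd, fs(1)N and Vm26Ac were 5.34 ± 0.46, 3.78 ± 0.25, 3.49 ± 0.15 and 3.12 ± 0.34, from whole larva means of 2.41, 7.16, 2.57 and 4.02.

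Mated against virgin spermatheca is the pair of groups that differ in mating and share their amplification. Of the 6 genes 0 were called higher and 0 lower by limma, and 0 passed an unadjusted p under 0.05, where 0.266% of 12038 probe sets were called higher and 0.474% lower. Vm26Aa averaged 43.7 ± 35.9 in mated and 75.4 ± 52.2 in virgin spermatheca, a log2 fold of -0.71 ± 0.44 (95% interval -1.68 to 0.27; limma adjusted p = 0.41). Vm34Ca averaged 44.3 ± 42.5 in mated and 55.8 ± 29.5 in virgin spermatheca, with -0.43 ± 0.44 (95% interval -1.41 to 0.55; limma adjusted p = 0.64). These folds rest on single arrays: without mated replicate 1, where both genes were highest, they were -1.10 and -0.89, and without virgin replicate 4, where both were highest too, -0.34 and -0.17, with no call in either case. The arrays overlapped for all 6 genes, and both of these intervals hold a value 2-fold lower in mated spermatheca. The other 4 genes had means of at most 16.3 in both groups and limma adjusted p-values of 0.27 to 0.93.

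Profiles over the 34 group means were compared on the log2 scale as a description. The groups share the strain and the array type, and the whole fly contains the other adult tissues, so r is also given without ovary and whole fly. Among the 6 genes Pearson's r was lowest for Vm34Ca with fs(1)N, at 0.811, and highest for Vm26Aa with Vm34Ca, at 0.969. Over the 32 groups without ovary and whole fly r was 0.89 for Vm26Aa with Vm34Ca, 0.84 for Vm32E with Vm34Ca and 0.83 for Vm26Aa with Vm32E. It was between -0.05 and 0.23 for fs(1)N with each of the other 5 genes over those 32 groups. Many of the 32 means lay below the pseudocount of 10: 27 for fs(1)N, 30 for Vm26Ac, 28 for Vm32E and 24 for psd. For Vm26Aa it was 18 and for Vm34Ca 16. These r values therefore rest largely on dim signals.

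The genes outside the set with the most similar profiles over 34 groups were CG11674 (0.946), alphaTub67C (0.941) and yl (0.939) for Vm26Aa. They were dhd (0.963), Cp38 (0.951) and Cp36 (0.949) for Vm34Ca. Here alphaTub67C encodes a maternal tubulin, yl the yolk receptor of the oocyte, dhd a thioredoxin of the female germline, and Cp36 and Cp38 are chorion genes. For Vm32E they were alphaTub67C (0.978), the chorion gene Cp7Fc (0.973) and CG11674 (0.971). For Vm26Ac they were CG13083 (0.966), CG11674 (0.957) and CG13114 (0.955), and for psd CG11381 (0.966), alphaTub67C (0.963) and CG11674 (0.962). Without ovary and whole fly the r of these genes was 0.80 to 0.84 for Vm26Aa, 0.81 to 0.87 for Vm34Ca and 0.72 to 0.79 for Vm32E, and 0.53 to 0.65 for Vm26Ac and 0.56 to 0.58 for psd.

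For fs(1)N the closest were Kots (0.969), wisp (0.968), which encodes a poly(A) polymerase of the oocyte, and Muc4B (0.962), at 0.71 to 0.81 without ovary and whole fly. Kots averaged 661 in ovary and 196 in the whole fly, and wisp 1060 in ovary and 487 in the whole fly. For the mean profile of the 6 genes they were alphaTub67C (0.985), CG11674 (0.985) and yl (0.984). CG11674 averaged 999 in ovary and 551 in the whole fly. Without ovary and whole fly these 3 fell to 0.84 each over 32 groups.

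The genes Vm26Ab, Vm26Ac, Vm26Aa and psd follow each other on chromosome arm 2L in NCBI's gene table of the Release 6 plus ISO1 MT assembly, with CG13998 on one side and CG13992 on the other. Vm32E and Vm34Ca lie elsewhere on 2L, and Vml and fs(1)N on X. The outer neighbours were read because of this position, and were chosen for naming after their values were seen. CG13992, next to psd, averaged 64.6 ± 12.4 in ovary, 40.2 ± 8.38 in the whole fly and 6.04 ± 1.94 in testes. CG13998, next to Vm26Ab, averaged 20.9 ± 6.31 in ovary, 19.9 ± 8.19 in the whole fly and 5.07 ± 2.62 in testes.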

How the data were processed

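The deposited table holds linear intensity signals of 18952 probe sets. How they were summarised and background-corrected is not given in the sources used here. The authors' arrays share a trimmed mean over the middle 96% of probe sets, between 100.002 and 100.006. After 183 controls were left out, 18769 probe sets were analysed. Of these 13647 have 1 symbol, 402 several and 4720 none in GEO's platform annotation, updated through NCBI's gene table for 13544.

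Each array was scaled to a trimmed mean of 100.00 and taken as log2(signal + 10.0), the pseudocount being 10% of it. Probe sets were tested when the mean of at least 1 group reached that group's 40th percentile. A gene with several probe sets was read from the one with the highest mean over all arrays. The functions lmFit and eBayes of limma 3.58.1, run in R 4.3.3, compared 4 with 4 arrays, or ovary with 20 groups in 1 fit, with Benjamini-Hochberg adjustment over all probe sets tested. The test was tried on simulated data first. Replicate numbers were not used to pair the arrays in the main fits, and no label states a pairing. Residuals of equal numbers correlated above 0.1 in 2 of 4 pairs at most (range -0.18 to 0.28). Yet for Vm26Ac, psd and Vm32E replicates 1 and 2 were lower than 3 and 4 in ovary and in whole fly alike. The highest correlation of 2 arrays was 0.995, so none was counted as a repeat.

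The genes and lists were chosen with earlier results of these data known. Named are all genes of the layer and, from each other list, up to 4 with the largest folds and up to 3 that go the other way or were not called. A list entry that is a synonym of psd was left out of its list. For similar profiles the 3 highest correlations are named. The neighbouring genes and the genes named for their spread between arrays were chosen after their values were seen. Alternatives were the values as deposited, quantile normalization, other pseudocounts (2% and 40%), dropping the filter or setting it at the 60th percentile, the mean of a gene's probe sets, a replicate block, 1 fit of all groups, arrays left out in turn, and the comparisons without thoracic muscle replicate 4 and the redone mated spermatheca.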

Additional observations from a re-analysis of the deposited data

Results flagged for a closer look

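Sets of 4 arrays of a gene in a group were tested for an array far from the others. Only sets whose highest array reached the trimmed mean were taken. Of 22 such sets, 2 had an array far from the others. Both reached the trimmed mean only through that array, so a chance rate of about 1 in 20 cannot be applied to them. In virgin spermatheca Vm26Aa read 154 on replicate 4, where the other arrays read 47.1 to 51.9. In mated spermatheca Vm34Ca read 108 on replicate 1, where the other arrays read 21.3 to 25.4. On the same mated array Vm26Aa was highest too, at 97.1, and on the same virgin array Vm34Ca, at 96.

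Of 60 pairs of a gene and a dissected larval group, 8 had every array above every whole larva array. Only 2 of these also averaged over 20, the double of the pseudocount. The share of all probe sets that pass these rules was not counted, so the counts are no result about these genes. Vm26Aa averaged 64.0 in larval midgut, with 98.0, 55.3, 56.7 and 45.9 on the 4 arrays, against 12.4 to 24.9 in the whole larva. Vm34Ca averaged 48.3 in larval midgut, with 88.3, 44.4, 37.1 and 23.4, against 3.49 to 3.91 in the whole larva. The 10 other eggshell genes held medians of 0.236% to 0.652% of their ovary means on these midgut arrays. The difference between larval midgut and whole larva was not tested.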

How the results depend on the processing

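The counts of vitelline membrane genes called in each single comparison were the same under every alternative run. They were 1 higher in ovary than in the whole fly and 6 higher in each of the 3 comparisons with testes, other tissues and larva. In mated against virgin spermatheca the count was 0. The lower calls by tissue stayed at 120 with arrays left out in turn. The run without the redone mated spermatheca had fewer tissues and so fewer such calls. Under the remaining alternatives that count was only checked to stay near 120. A pseudocount of 40% lowered the number of all probe sets called, to 3240 from 5653 for ovary against whole fly, to 2409 from 4162 for whole fly against whole larva, and to 71710 from 112526 over the tissue fits. The replicate block gave adjusted p-values of 0.0032 for Vm26Ac, 0.014 for psd and 0.022 for Vm32E in ovary against whole fly, all still under 2-fold, and 3.2e-06 for fs(1)N. Leaving out 1 array at a time, fs(1)N kept a log2 fold of 1.81 to 1.99 there. Over the genes of the other lists 26 alternative values passed and 24 lost the threshold, of 1370. The filter at the 60th percentile left some dim genes untested. Where a gene's signals lie below the pseudocount the fold depends on it: Vm34Ca in ovary against testes ranged from 6.43 to 9.44, and fs(1)N, above it in testes, from 2.67 to 3.40.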
